A study of Mus musculus with 12 samples.

Results

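miR-143, miR-145, miR-199 and miR-214 are microRNAs best known from connective tissue, smooth muscle and other mesenchyme, and their levels were followed here in sorted mouse endoderm and pancreatic progenitors. The members were all entries of the small RNA count table named for mouse miR-143, miR-145a, miR-145b, miR-199a, miR-199b or miR-214, mature arms and hairpin precursors alike. The rule found 15 of the 1053 entries, 9 mature arms and 6 precursors, and 12 of the 15 passed the filter on low counts that left 571 entries for testing. No entry was named for miR-145b. The 12 libraries were 3 at each of 4 stages. The E8.5 libraries held Foxa2-CreER, tdTomato+ endoderm (the CreER was knocked into Foxa2 and switched on by tamoxifen given to the pregnant dam) sorted from whole embryos. The E9.5, E10.5 and E11.5 libraries held Pdx1-Cre, tdTomato+ cells labelled as pancreas and sorted from the trunk. All groups carried a Cre allele and the tdTomato reporter, and the males of the lineage crosses also carried 1 mir-302 allele replaced by eGFP, so embryos may have differed at mir-302, which the labels do not give. Each comparison with E8.5 therefore changed driver, dissected region and stage together, and these cannot be told apart. Libraries of a stage share a number in their names that other stages lack, and a batch marked by that number cannot be told apart from stage either. Pdx1-Cre marks progenitors of the duodenum and other nearby gut as well as of the pancreas, and the sort selects on tdTomato, not on an epithelial surface marker.

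A microRNA is cut from a hairpin precursor, and either strand of the hairpin, the 5p or the 3p arm, can be loaded into the silencing complex, which finds target mRNAs mainly through the seed, the bases just after the first one of the arm. miR-143 and miR-145 are made from 1 transcript and are abundant in smooth muscle and fibroblasts, where they promote the contractile state. miR-199a and miR-214 are made from the long noncoding RNA Dnm3os, which is needed for normal skeletal growth, and are typical of mesenchymal and perichondrial cells. In organs of mixed composition, the miR-200 family (miR-200a, miR-200b, miR-200c, miR-141 and miR-429) marks epithelium, and these mesenchymal microRNAs are usually read against it.

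The mature sequences of the miR-199 and miR-214 members are shown because the arms that share or do not share letters decide which counts can be read separately. RefSeq tables on build GRCm38.p6 held 5 mature names of these families, of which 4 were listed in the count table, and capitals mark the seed at positions 2 to 8, counted from the 5′ end. The sequences of miR-143 and miR-145 are not printed here.
miR-199a-5p: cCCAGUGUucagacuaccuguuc
miR-199a-3p: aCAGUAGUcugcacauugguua
miR-199b-3p: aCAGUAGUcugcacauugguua
miR-214-3p: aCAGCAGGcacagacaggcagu
miR-199a-3p and miR-199b-3p are the same in all 22 positions, so a read of one is a read of the other. miR-199a-3p and miR-214-3p hold the same base at 5 of the 7 seed positions and belong to different seed families. miR-214-3p shares its seed with miR-761, which was not in the count table. On GRCm38 (mm10) with the GENCODE M21 annotation, Mir199a-2 (chr1:162217814-162217923, plus strand) and Mir214 (chr1:162223368-162223477, plus strand) lie 5445 bases apart. Both overlap an exon of Dnm3os and an intron of Dnm3 on the opposite strand. The other miR-199 hairpins lie in dynamin genes too, Mir199a-1 (chr9:21496495-21496564, minus strand) in an intron of Dnm2 and Mir199b (chr2:32318460-32318569, plus strand) in an intron of Dnm1, each on the strand opposite to the host.

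Depth set what could be seen. Total counts ran from 386094 to 594224 among the E8.5 libraries, from 53996 to 80075 among those of E9.5, from 133435 to 267978 among those of E10.5 and from 417743 to 1103383 among those of E11.5. A count of 3, the most that a library with 0 counts allows, was worth 4.34 to 7.75 CPM (counts per 1000000 counts) in the E8.5 libraries, 32.0 to 75.9 CPM in those of E9.5, 11.4 to 25.8 CPM in those of E10.5 and 2.74 to 6.84 CPM in those of E11.5. CPM were computed on library totals scaled by the trimmed mean of M-values (TMM). Of the 180 member values in the 12 libraries, 60 were 0 and 29 were between 1 and 3. The counts are reads after PCR and not molecules, so intervals and floors cover counting error only, and the p-values measure the spread between these 3 libraries a stage. In sorted bulk cells, fewer cells of a type and less RNA per cell cannot be told apart.

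miR-143-3p was read at least 48 times in every library, the only member of which this holds, and it was lowest at E9.5. Over the 4 stages, 3 of the 12 members tested changed with stage (miR-143-3p, miR-199a-5p and miR-214-3p; edgeR quasi-likelihood F test, Benjamini-Hochberg adjusted p of 0.0076, 0.0471 and 0.0478), where 15.9% of all entries tested did. miR-143-3p was lowest at E9.5, while miR-199a-5p and miR-214-3p were lowest at E8.5 and highest at E11.5. The miR-199a-3p and miR-199b-3p arms, the most abundant of the miR-199 and miR-214 group, showed no stage difference beyond the spread between libraries (adjusted p = 0.853 and 0.819 in the same test). miR-143-3p kept this call in all 12 fits that left out 1 library, miR-214-3p in 6 and miR-199a-5p in 1, and without any 1 of the 3 E8.5 libraries or E10.5 replicate 1 miR-143-3p was the 1 member called. The call of miR-143-3p over the 4 stages missed the threshold with DESeq2 (adjusted p = 0.0807) and with limma voom (adjusted p = 0.179).

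**Figure D1:**
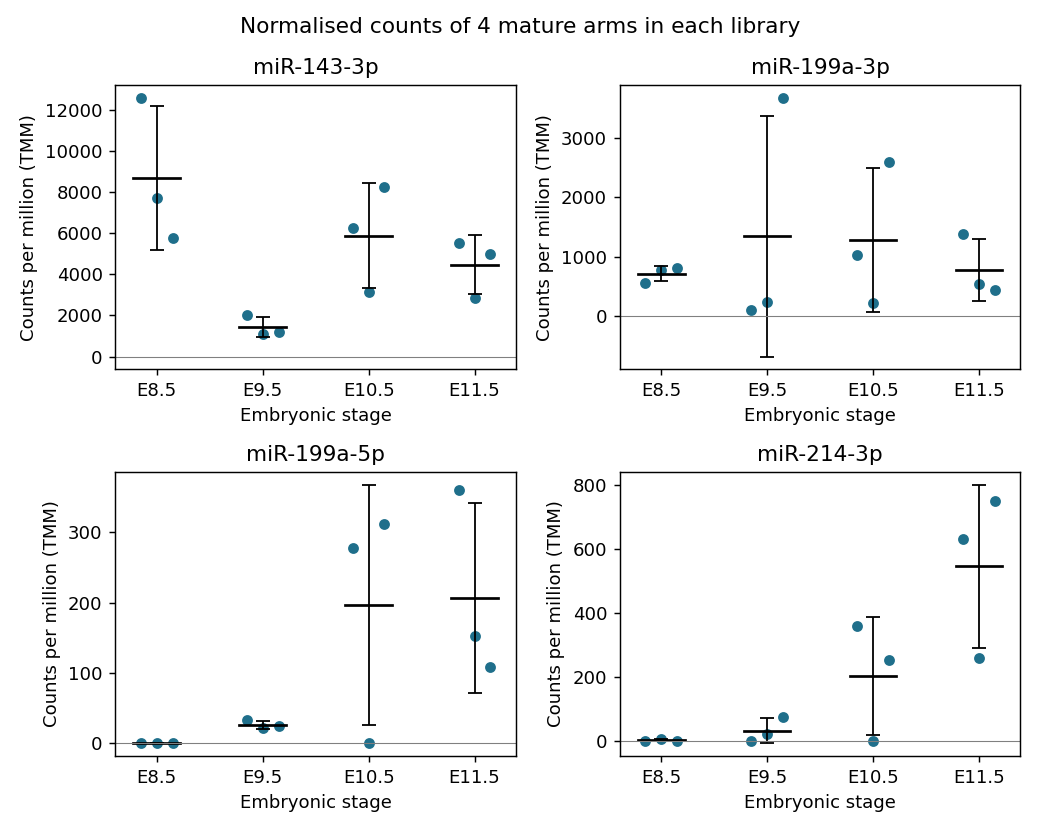
Normalised counts (CPM after TMM scaling, linear axes that differ between panels) of 4 mature arms at each stage; points are the 3 libraries, the long bar is the mean and the whisker 1 SD. miR-143-3p is lowest at E9.5 (mean 1446 CPM), miR-199a-5p and miR-214-3p are at or near 0 at E8.5, and 1 library lies far above the other 2 in miR-199a-3p at E9.5.

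mmu-miR-143-3p, the guide arm of the miR-143 hairpin, is a regulator of smooth muscle actin dynamics and differentiation. It was read 7270, 2981 and 3997 times in the E8.5 libraries, 124, 104 and 48 times at E9.5, 1642, 366 and 2114 times at E10.5, and 2426, 3091 and 4160 times at E11.5. The E9.5 libraries were the lowest also after scaling for depth, and did not overlap those of any other stage. The E8.5 mean was 8684 ± 3502 CPM, the E9.5 mean 1446 ± 494 CPM, the E10.5 mean 5877 ± 2567 CPM and the E11.5 mean 4453 ± 1433 CPM (SD, n = 3). By mean level it ranked 20 among the 633 mature arms in E8.5 cells, 92 in E9.5 cells, 28 in E10.5 cells and 42 in E11.5 cells.

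From E8.5 to E9.5, miR-143-3p fell by 2.59 on the log2 scale (SE 0.53, edgeR quasi-likelihood adjusted p = 0.00208). It was the 1 member of 12 that passed in this comparison, where 5.60% of all entries did. The median difference of the 12 members was -3.04 and that of all 571 entries -0.84. The member median includes mir-145a and mir-199a-1, with 0 reads at E9.5, and mir-199a-2 and mir-199b, with 1 read each. The size of such differences is set by a small prior count in the fit. The mir-199 precursors were also counted nearly alike, so this median is no measure of a fall of the group. With relative log expression (RLE) factors in place of TMM the median of all entries was -0.21 and miR-143-3p differed by -1.94 (edgeR adjusted p = 0.0211). The fall was called in each of the 12 fits that left out 1 library, with differences of -2.98 to -2.19, and missed the threshold with limma voom (adjusted p = 0.134). From E9.5 to E10.5, miR-143-3p rose by 2.02 (SE 0.51, edgeR adjusted p = 0.0237). It was again the 1 member of 12, beside 4.38% of all entries. The median difference of the members was 2.97, beside 0.17 for all entries. It includes the same entries with few E9.5 reads. The rise missed the threshold with RLE factors (edgeR adjusted p = 0.101), with DESeq2 (adjusted p = 0.0951), with limma voom (adjusted p = 0.524), when only the E9.5 and E10.5 libraries were fitted (edgeR adjusted p = 0.155) and without any 1 of 4 libraries (replicate 2 of E8.5, replicate 2 of E9.5, or either of replicates 1 and 3 of E10.5).

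The other differences of miR-143-3p did not pass the test. E11.5 against E10.5 was -0.40 (SE 0.49, edgeR adjusted p = 0.853), and none of the 12 members passed in that comparison, beside 0.350% of all entries. At an unadjusted p under 0.05, 0 of the 12 members and 61 of all entries passed there, and with DESeq2 and limma voom the members called were also 0. E11.5 against E9.5 was 1.62 (SE 0.51, edgeR adjusted p = 0.0702), a difference in the direction of the E10.5 rise that missed the threshold although no E11.5 library overlapped an E9.5 library. None of the 12 members passed in that comparison by edgeR, DESeq2 or limma voom, where 4.55% of all entries did by edgeR. An unadjusted edgeR p under 0.05 was found for 3 of the 12 members and for 105 of all 571 entries. Against E8.5, miR-143-3p differed by -0.56 at E10.5 (edgeR adjusted p = 0.523) and by -0.96 at E11.5 (edgeR adjusted p = 0.259). The second of these was called with limma voom (adjusted p = 0.0200) and with a filter of 10 counts in every library (edgeR adjusted p = 0.0228), and its 2 groups of libraries did not overlap. In the order E8.5, E10.5, E11.5 and E9.5, from high to low, no neighbours among the first 3 differed beyond their spread.

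**Figure D2:**
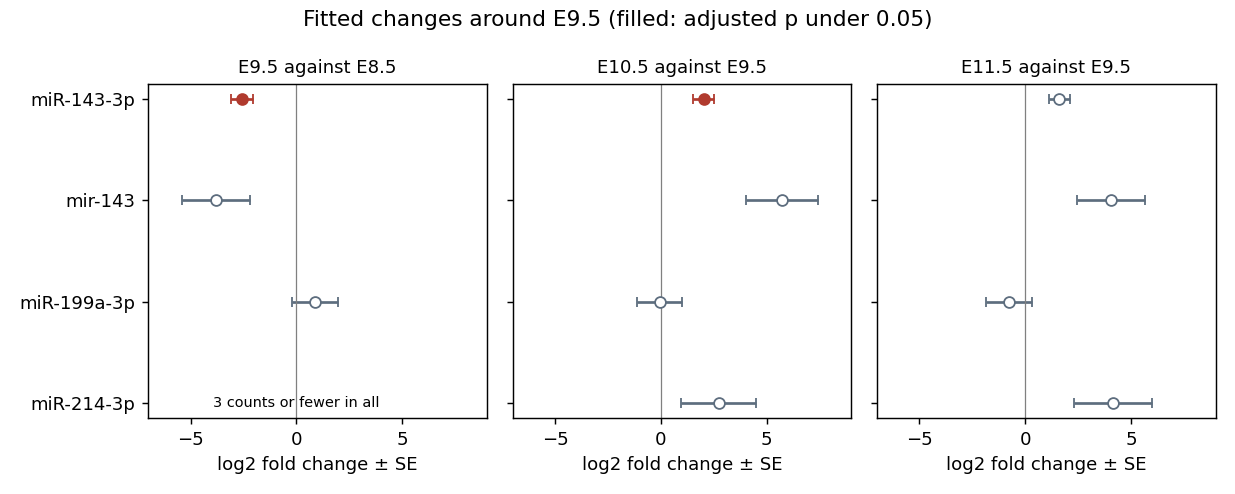
Fitted log2 fold changes with standard errors (edgeR, 3 libraries a stage) of 2 miR-143 entries and 2 miR-199 and miR-214 arms in the 3 comparisons that involve E9.5; filled points have an adjusted p under 0.05. Only miR-143-3p is filled, at -2.59 and 2.02, and miR-214-3p has no value in the first panel because its counts were 3 or fewer in all 6 libraries.

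mmu-mir-143 is the entry of the hairpin precursor, and how reads were divided between it and the mature arms is not given in the sources used here. It was read 288, 105 and 70 times at E8.5, 1, 2 and 1 times at E9.5, 20, 296 and 186 times at E10.5, and 409, 121 and 7 times at E11.5. At E9.5 the precursor had at most 2 reads a library, below every library of E8.5 and E10.5, and at the later stages it varied widely among libraries. It differed by -3.79 from E8.5 to E9.5 (SE 1.61, edgeR adjusted p = 0.204) and by 5.73 from E9.5 to E10.5 (SE 1.71, edgeR adjusted p = 0.0591), neither past the threshold. The second of these was called with DESeq2 (adjusted p = 0.00812), with no filter on low counts (edgeR adjusted p = 0.0153) and in 4 of the 12 fits that left out 1 library. In E10.5 replicate 2 the precursor made up 44.7% of all reads of the miR-143 entries (95% Wilson interval 41.0% to 48.5%), against 0.168% to 14.4% in the other 11 libraries.

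mmu-miR-145a-5p, the partner of miR-143 and a repressor of pluripotency and smooth muscle plasticity factors, was nearly absent. It was read 17, 0 and 87 times at E8.5, 0, 1 and 0 times at E9.5, 0, 1 and 0 times at E10.5, and 27, 0 and 5 times at E11.5. Reads of 1 stage came mostly from 1 or 2 of its libraries, and no stage difference passed (edgeR adjusted p = 0.527 over the 4 stages). The precursor mmu-mir-145a was read 36, 77 and 1 times at E8.5, never at E9.5, once in E10.5 replicate 2, and 0, 56 and 1 times at E11.5. mmu-miR-145a-3p was read 40 times in E8.5 replicate 1 and 17 times in E10.5 replicate 2 and not in the other 10 libraries. mmu-miR-143-5p was read 3 times in E8.5 replicate 2 and in no other library. miR-145a-3p and miR-143-5p did not pass the filter. On GRCm38 (mm10) with GENCODE M21, Mir143 (chr18:61649196-61649258, minus strand) and Mir145a (chr18:61647825-61647894, minus strand) lie 1302 bases apart, both between annotated genes.

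mmu-miR-199a-3p, the arm of miR-199 that restrains proliferation and mTOR signalling in several cell types, did not differ between stages beyond the spread of its libraries. It was read 328, 304 and 559 times at E8.5, 7 and 23 times in replicates 1 and 2 of E9.5 and 175 times in all 3 together, 270, 26 and 667 times at E10.5, and 607, 588 and 364 times at E11.5. At E9.5 the third replicate held more of these reads than the other 2 together, and at E10.5 the second replicate was far below the others. The E8.5 mean was 720 ± 133 CPM, the E9.5 mean 1342 ± 2014 CPM, the E10.5 mean 1283 ± 1208 CPM and the E11.5 mean 786 ± 520 CPM (SD, n = 3). The SD exceeded the mean at E9.5, and none of the neighbours in this order were separated. The fitted differences ran from -0.76 (E11.5 against E9.5) to 0.89 (E9.5 against E8.5), each with a standard error above 1 and an edgeR adjusted p of 0.621 or more. Leaving out E9.5 replicate 3 turned the E9.5 against E8.5 difference from 0.89 to -1.97 and the E10.5 against E9.5 difference from -0.05 to 2.80, neither of them past the threshold (edgeR adjusted p = 0.411 and 0.187). Its direction between these stages thus rested on 1 library.

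mmu-miR-199b-3p, which has the same sequence, was read 302, 301 and 397 times at E8.5, 7 and 23 times in replicates 1 and 2 of E9.5 and 173 times in all 3 together, 270, 26 and 547 times at E10.5, and 565, 587 and 364 times at E11.5. The counts of the 2 names were equal in 5 libraries and differed by at most 162 reads, and over all libraries miR-199b-3p had 90.8% of the count of miR-199a-3p. The 2 entries are therefore read as 1 measurement, of uncertain origin among 3 hairpins. The arm that would tell Mir199b apart, mmu-miR-199b-5p, was read 49 times in E11.5 replicate 1, once each in E11.5 replicate 2 and E10.5 replicate 2, and not in the other 9 libraries.

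mmu-miR-199a-5p, the other arm of the same hairpin and a regulator of hypoxia and fibrosis genes, was counted in far fewer reads and had another course. It was read in none of the 3 E8.5 libraries, 2, 2 and 1 times at E9.5, 73, 0 and 80 times at E10.5, and 158, 166 and 90 times at E11.5. All 3 E11.5 libraries held it and were above all E8.5 and E9.5 libraries, whereas E10.5 replicate 2 held none. The mean was 196.5 ± 171 CPM at E10.5 and 206.7 ± 135 CPM at E11.5 (SD, n = 3). The floor of 3 counts per library at E8.5 was a mean of 5.76 CPM. Mean levels of miR-199a-5p were 34.1-fold that floor at E10.5 and 35.9-fold at E11.5. These folds cover the counting of reads only and are no lower bound in molecules. Within a library, counts of all entries also gathered at a second, higher level, 44.7 to 75.0 reads at E8.5. The E10.5 counts of 73 and 80 stood beside levels of 116 and 87.1 reads in their libraries. The differences of E10.5 and E11.5 from E8.5 both passed (edgeR adjusted p = 0.0219 and 0.0181). miR-199a-5p was the 1 member of 12 called for E10.5 against E8.5, where 8.58% of all entries were. Each of the 2 calls was lost when any 1 of the 3 E8.5 libraries was left out (edgeR adjusted p up to 0.129 and 0.0958) and when counts under 10 were set to 0 (edgeR adjusted p = 0.151 and 0.128). Between E10.5 and E11.5 it differed by 0.07 (SE 1.77, edgeR adjusted p = 0.997).

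mmu-miR-214-3p, made from the same Dnm3os transcript as miR-199a-2 and known from skeletal and fibroblast biology, rose with miR-199a-5p. It was read 1, 3 and 1 times at E8.5, 0, 2 and 3 times at E9.5, 94, 0 and 65 times at E10.5, and 276, 285 and 622 times at E11.5. The 3 E11.5 libraries lay above every E8.5 and E9.5 library in CPM, and E10.5 replicate 2 again held none. From E8.5 to E11.5 its fitted difference was 7.17 (SE 2.08, edgeR adjusted p = 0.0250), and miR-199a-5p and miR-214-3p were the 2 members of 12 called there, where 11.6% of all entries were. Pooled over libraries, the level at E11.5 was 166-fold that at E8.5, from 1183 against 5 reads, with a 95% counting interval of 70.9 to 512. That interval treats reads as independent and leaves out the spread between libraries, so it is narrower than the data allow. The call was lost without any 1 of 5 libraries, the 3 of E8.5 and replicates 1 and 3 of E11.5 (edgeR adjusted p up to 0.113), and when counts under 10 were set to 0 (edgeR adjusted p = 0.0677). At E10.5 the difference from E8.5 was 5.76 (SE 1.95, edgeR adjusted p = 0.0633), which DESeq2 called (adjusted p = 0.00142). E11.5 against E9.5 was 4.15 (SE 1.86, edgeR adjusted p = 0.227), with 32.0 to 75.9 CPM for 3 counts in E9.5 libraries.

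Reads of miR-199a-3p may also come from Mir199b, so shares of the 2 arms are not those of the miR-199a hairpins alone. The share of the 5p arm in the reads of both miR-199a arms was 0% in all 3 E8.5 libraries, from 304 to 559 reads of the 3p arm, which allows a share of up to 0.537% to 0.987%. In the E9.5 libraries it was 22.2%, 8% and 0.685%, from 1 or 2 reads each. In the E10.5 libraries it was 21.3%, 0% and 10.7%, and the 0 of replicate 2 came from 26 reads of the 3p arm, which allows a share of up to 11.54%. In the E11.5 libraries it was 20.7%, 22.02% and 19.8%, with 95% Wilson intervals that together span 16.4% to 25.1%. The E11.5 shares lay close together and above all E8.5 shares, and overlapped the ranges of E9.5 and E10.5. An exact two-sided permutation test of the log ratio of the 2 arms gave p = 0.1 for E11.5 against E8.5, the smallest p that 3 against 3 libraries allow, so the design could not reach 0.05. The ratio of miR-214-3p to miR-199a-3p moved the same way, from a mean log2 ratio of -7.59 at E8.5 to -0.47 at E11.5 (0.5 added to each count; exact permutation p = 0.1).

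**Figure D3:**
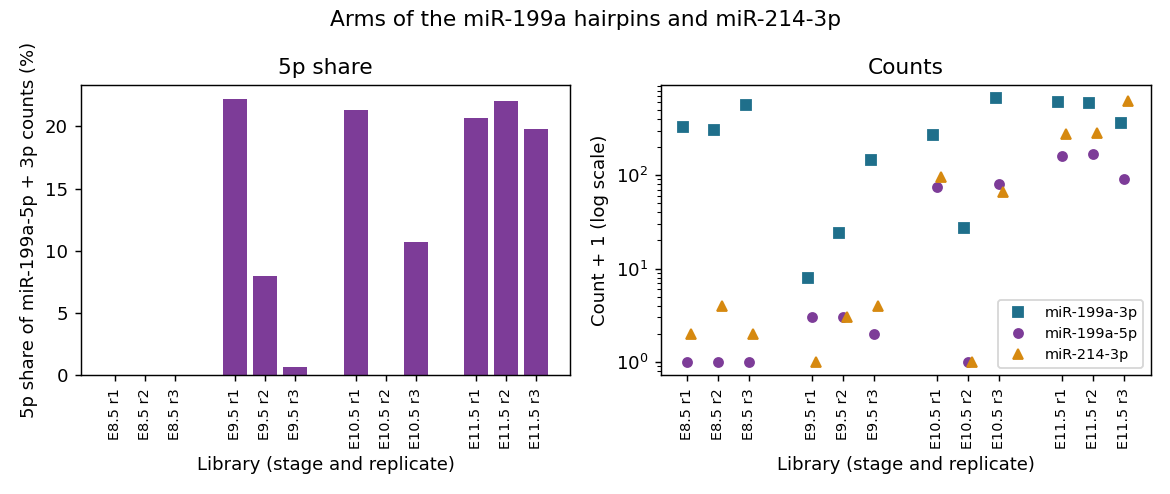
Left, share of the 5p arm in the reads of the miR-199a arms in each of the 12 libraries (bars from 0%, no bar where no 5p read was found); right, counts plus 1 of 3 arms on a log axis, so that a count of 0 sits at 1. The 3p arm is present in every library, while the 5p arm and miR-214-3p are at 3 counts or fewer through E8.5 and E9.5 and reach 65 reads or more in the other libraries except E10.5 replicate 2, where both are 0. Reads of the 3p arm may also come from Mir199b.

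The precursor entries of this group share letters and were counted in parallel, so they are read with caution. mmu-mir-199a-1 was read 85, 25 and 45 times at E8.5, never at E9.5, 64, 0 and 75 times at E10.5, and 69, 1 and 3 times at E11.5. mmu-mir-199b lay within 2 reads of it in 11 of the 12 libraries, and mmu-mir-199a-2 in 10. In E10.5 replicate 2 the entry mmu-mir-199b had 23 reads while mir-199a-1 and mir-199a-2 had 0. In E11.5 replicate 3 the entry mmu-mir-199a-2 had 148 reads while the other 2 had 3 each. In E11.5 replicate 1 it had 97 reads beside 69 of mir-199a-1, and in E11.5 replicate 2 it had 1. mmu-mir-214, its neighbour on the same transcript, was read 0, 5 and 1 times at E8.5, 0, 1 and 1 times at E9.5, 46, 0 and 96 times at E10.5, and 18, 187 and 123 times at E11.5. No precursor of the group passed in any of the 6 edgeR comparisons or over the 4 stages (lowest adjusted p over the 4 stages, 0.257 for mir-214), although DESeq2 called mir-214 higher at E10.5 and E11.5 than at E8.5 (adjusted p = 0.0166 and 0.0490) and limma voom did so at E11.5 (adjusted p = 0.0246). When only the E8.5 and E9.5 libraries were fitted, edgeR called mir-199a-1 lower at E9.5, where it had no read (adjusted p = 0.0270).

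Set against the summed miR-200 family of the same library, which needs no scaling between libraries, the mature arms of miR-143 and miR-145 were at 129%, 69.9% and 65.4% at E8.5. The E9.5 libraries had 9.06%, 6.17% and 5.95%, the E10.5 libraries 27.3%, 20.0% and 36.6%, and the E11.5 libraries 23.9%, 7.26% and 13.0%. The E8.5 libraries were above, and the E9.5 libraries below, all those of E10.5, while E11.5 replicate 2 came down to the E9.5 range. The miR-200 sum itself also moved over these stages, so the ratio moved with both parts. It was 9950 ± 1010 CPM in E8.5 cells, 20275 ± 2026 CPM in E9.5 cells, 20619 ± 3611 CPM in E10.5 cells and 33586 ± 8828 CPM in E11.5 cells (SD, n = 3). Between neighbouring stages edgeR called 0 of the 5 miR-200 arms, beside 5.60%, 4.38% and 0.350% of all entries. At E11.5 it called 3 of the 5 higher than at E8.5, beside 30 of all 571 entries. The mature arms of miR-199 and miR-214 stood at 13.6 ± 2.17% of the miR-200 sum in E8.5 cells, 13.4 ± 19.7% in E9.5 cells, 12.7 ± 10.4% in E10.5 cells and 8.15 ± 6.91% in E11.5 cells (SD, n = 3), with overlapping libraries throughout. As a share of all counts, miR-143 and miR-145 made up 0.956 ± 0.394% in E8.5 cells, 0.138 ± 0.0525% in E9.5 cells, 0.593 ± 0.295% in E10.5 cells and 0.454 ± 0.158% in E11.5 cells. In the same order the shares of miR-199 and miR-214 were 0.147 ± 0.0220%, 0.209 ± 0.288%, 0.289 ± 0.263% and 0.238 ± 0.137% (SD, n = 3). All sums of miR-199 and miR-214 hold both miR-199a-3p and miR-199b-3p, which have the same sequence. The same reads may thus be counted under both names, which would make these sums, shares and ratios too high.

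**Figure D4:**
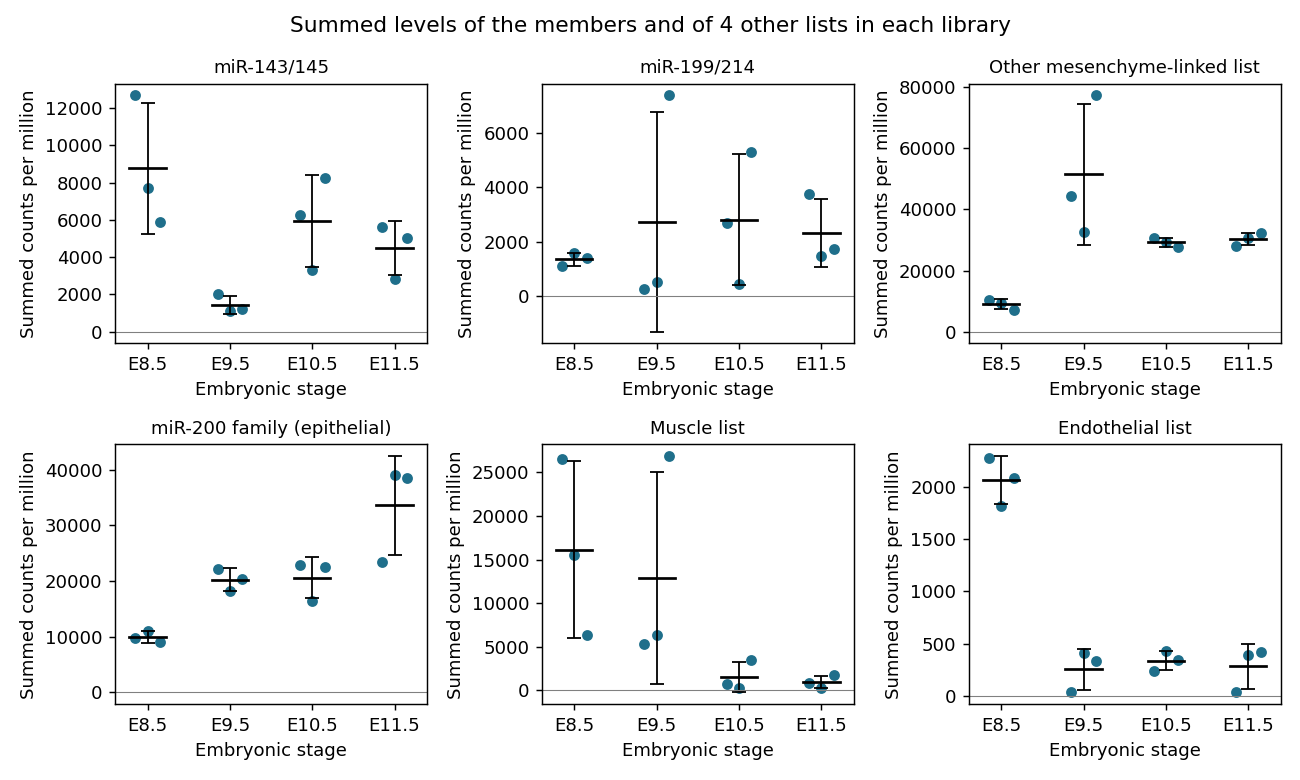
Summed CPM of the mature arms of the 2 member groups and of 4 other microRNA lists in each library, by stage, on linear axes that differ between panels; points are libraries, bars the mean and whiskers 1 SD. miR-143 and miR-145 is lowest at E9.5 while the other mesenchyme-linked list is highest there (mean 51428 CPM), and E9.5 replicate 3 is the highest of its stage in miR-199 and miR-214, the mesenchyme-linked list and the muscle list. The miR-199 and miR-214 sum holds both miR-199a-3p and miR-199b-3p, which have the same sequence.

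Other microRNAs that are often high in mesenchyme did not move as 1 group. The list held 11 mature arms (miR-140 arms, miR-125b, miR-100, miR-99a, miR-21a, miR-22, miR-23b, miR-24, miR-27b and miR-152), several of which are also made by epithelia, and all 11 passed the filter. From E8.5 to E9.5, 6 of the 11 rose (miR-21a-5p, miR-22-3p, miR-23b-3p, miR-24-3p, miR-27b-3p and miR-99a-5p) and none fell, with a median difference of 1.98 beside -0.84 for all entries, of which 23 rose and 9 fell of 571. miR-140-5p, miR-140-3p and miR-152-3p were at 0 in all E9.5 libraries, and their fitted differences from E8.5 to E9.5 were -8.52, -8.09 and -7.56, with none past the threshold (edgeR adjusted p = 0.246, 0.271 and 0.271). Summed over all 11 arms, the E8.5 mean was 8960 ± 1700 CPM, the E9.5 mean 51428 ± 23145 CPM, the E10.5 mean 29187 ± 1479 CPM and the E11.5 mean 30325 ± 2023 CPM (SD, n = 3). From E9.5 to E10.5, 1 of the 11 fell (miR-21a-5p) and none rose, while 9 of all entries rose and 16 fell.

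Markers of other cell types were read beside the members. The muscle list (miR-1a-3p, miR-133a-3p and miR-206-3p) was high at E8.5, with sums of 26546, 15562 and 6286 CPM in replicates 1 to 3. That was the same order as miR-143 and miR-145, with 12671, 7709 and 5905 CPM. Nearly all of the muscle sum was miR-1a-3p (E8.5 mean 16078 CPM, beside 44.6 CPM of miR-133a-3p and 8.45 CPM of miR-206-3p). The other 2 took other courses, with miR-133a-3p highest at E9.5 (464 ± 803 CPM) and miR-206-3p at E11.5 (164 ± 142 CPM; SD, n = 3). At E9.5, replicate 3 had 26855 CPM of the muscle list against 5278 and 6354 CPM in the other 2. Its sum of miR-199 and miR-214, with the shared 3p sequence under both names, was 7384 CPM against 260 and 534 CPM. E9.5 sums of miR-143 and miR-145 were 2014, 1121 and 1214 CPM in replicates 1 to 3, not in the order of the muscle list. Those orders matched at E10.5 and differed at E11.5. The E10.5 libraries had 266 to 3518 CPM of the muscle list and the E11.5 libraries 280 to 1711 CPM, with 1 of its 3 members at 0 in all libraries of each of these stages. miR-1a-3p, the 1 muscle entry that passed the filter, was called lower by edgeR at E10.5 than at E9.5 (log2 difference -3.03) and than at E8.5 (-3.41). From E8.5 to E9.5 miR-1a-3p differed by -0.38 (edgeR adjusted p = 0.767). The endothelial list (both arms of miR-126a) had 2063 ± 231 CPM in E8.5 cells, 256 ± 197 CPM in E9.5 cells, 337 ± 94.9 CPM in E10.5 cells and 282 ± 215 CPM in E11.5 cells (SD, n = 3). The erythroid sum was between 32.5 and 834 CPM in all libraries, the neural sum at most 507 CPM, and the leukocyte sum 10.7 to 2655 CPM at E9.5 and at most 59.3 CPM elsewhere. The hepatic list (both arms of miR-122, the main microRNA of liver) had 463 to 593 CPM at E8.5 and 38790 to 130754 CPM from E9.5 on. The part of these cell types in the member levels was not tested. Markers of the labelled tissue were read at every stage, E8.5 endoderm included. The pancreatic list (miR-375-3p and miR-7a-5p) had 22979 to 27499 CPM at E8.5 and 33859 to 139059 CPM from E9.5 on. In every E9.5 library the hepatic sum was above the pancreatic sum (means 64764 and 47790 CPM). The pancreatic mean was the higher at E10.5 (122248 against 91478 CPM) and E11.5 (92717 against 52211 CPM). From E8.5 to E9.5, miR-375-3p differed by 0.34 (edgeR adjusted p = 0.418) and miR-7a-5p by 1.81 (edgeR adjusted p = 6.26e-05). All 5 miR-200 family members were read at every stage, miR-141-3p with 1 to 3 reads a library at E9.5.

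Among the 371 mature non-members that passed the filter, those whose log2(CPM + 1) followed miR-143-3p most closely over the 12 libraries were miR-103-3p (Pearson r 0.83), miR-466b-3p (r 0.81), the miR-466c-3p and miR-466p-3p entries with nearly the same counts (r 0.81) and miR-25-3p (r 0.78). For miR-199a-3p they were miR-1193-3p (r 0.90), miR-483-5p (r 0.84), miR-154-3p (r 0.75), miR-3102-3p.2-3p (r 0.72) and miR-1983 (r 0.71). Neither set held another mesenchyme-linked entry of the list above. miR-143-3p and miR-199a-3p had an r of 0.25 with each other, and miR-143-3p and miR-214-3p an r of 0.07. Among the precursor entries, miR-143-3p had an r of 0.86 with mir-199a-1, 0.79 with mir-199b, 0.74 with mir-199a-2 and 0.52 with mir-143. Its r was 0.40 with mir-145a and 0.09 with mir-214. The r with mir-199a-1 was above that with miR-103-3p. miR-199a-3p had an r of 0.99 with miR-199b-3p, 0.29 with miR-199a-5p and 0.55 with miR-214-3p. These values are descriptions over 12 libraries that share depth and stage, and carry no test.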

How the data were processed

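Small RNA was measured in 12 libraries, 3 at each of 4 stages, grouped by the sample titles. The values the authors deposited were read counts, whole numbers for each miRNA entry with no scaling applied. Per the study's methods reads were trimmed of the adapter and 4 random bases and aligned with STAR on mm10 in the COMPSRA pipeline, and the random bases were not used to count molecules. Per the file headers reads of 17 to 35 bases were kept (36 in 2 libraries). The labels also name GRCm39, whose role is not given in the sources used here. Every entry named a miRNA, and all 12 columns matched a sample.

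From these counts, edgeR 4.0.16 (R 4.3.3) fitted all 12 libraries by stage with TMM factors (0.732 to 1.17), filterByExpr (minimum count 10, total 15), quasi-likelihood tests and Benjamini-Hochberg adjustment over 571 entries, called at 0.05. Differences are fitted with a prior count of 0.125, which sets their size where a stage has few reads. The common biological coefficient of variation was 1.19. Alternatives used DESeq2 1.42.0, limma 3.58.1, other scalings, filters and left-out libraries. Ratios and permutation tests used scipy 1.17.1. Depth, from 53996 to 1103383 counts, limits the precision most at E9.5. The members, lists and tests were chosen with earlier results of these data known. All members are named, list members only where a result turns on them, and the 5 non-members most alike in profile follow the most abundant arm of each group. No sequence is given for miR-143 and miR-145.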

Additional observations from a re-analysis of the deposited data

How the results depend on the processing

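Scaling, filter, tool and left-out library each decided some of the member calls, and depth limits E9.5 most, where a count of 3 is worth 32.0 to 75.9 CPM. miR-143-3p was called lower at E9.5 than at E8.5 in every alternative but limma voom. The calls of miR-199a-5p and miR-214-3p rest on near-empty E8.5 libraries. Directions of miR-199a-3p are not settled by these data. The causes of the changes below were not tested.

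With all libraries kept, the members called from E8.5 to E9.5 numbered 1, but 2 with DESeq2 and with only the 2 stages fitted, and 0 with limma voom. From E9.5 to E10.5 they numbered 1, but 0 with RLE factors, limma voom or only the 2 stages fitted, and 2 with no filter. For E10.5 against E8.5 they numbered 1, but 0 with 10 counts in every library, with only the 2 stages fitted or with counts under 10 set to 0, and 3 with DESeq2. For E11.5 against E8.5 they numbered 2, but 1 with 10 counts in every library (miR-143-3p, not called before), 3 with DESeq2 (mir-214 added), 4 with limma voom (mir-214 and miR-143-3p added) and 0 with counts under 10 set to 0. Over all entries, DESeq2 called 98 of 626 there and limma voom 147 of 571. The setting with counts under 10 at 0 called 33 of 554. For E11.5 against E9.5 they numbered 0, but 1 with counts under 10 set to 0. Over the 4 stages they numbered 3, but 1 (miR-143-3p) with RLE factors, with 10 counts in every library and with counts under 10 set to 0, and 2 with library size alone and mature arms only (miR-143-3p and miR-214-3p) and with DESeq2 and limma voom (miR-199a-5p and miR-214-3p). No filter also gave 3, with mir-143 in place of miR-199a-5p. Of all entries, the 4-stage test called 95 of 571 with RLE factors, 86 of 571 with library size alone and 77 of 374 with mature arms only. It called 50 of 107 with 10 counts in every library, 47 of 554 with counts under 10 at 0 and 130 of 1053 with no filter. DESeq2 called 127 of 616 and limma voom 88 of 571. With 10 counts in every library miR-143-3p was the 1 member tested, and with only E8.5 and E10.5 fitted miR-199a-5p was filtered out, so the 0 calls there include members that were not tested.

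Leaving out 1 library gave 1 to 1 members for E9.5 against E8.5, 0 to 2 for E10.5 against E9.5, 0 to 0 for E11.5 against E10.5, 0 to 2 for E10.5 against E8.5, 0 to 2 for E11.5 against E8.5, 0 to 1 for E11.5 against E9.5 and 1 to 3 over the 4 stages. The fold changes that changed sign ran from -1.97 to 1.68 for miR-199a-3p in E9.5 against E8.5, -0.99 to 2.80 in E10.5 against E9.5, -1.27 to 0.31 in E11.5 against E10.5, -0.20 to 1.31 in E10.5 against E8.5, -0.43 to 0.40 in E11.5 against E8.5 and -1.49 to 2.09 in E11.5 against E9.5, from -0.50 to 0.57 for miR-199a-5p in E11.5 against E10.5, and from -2.09 to 0.97 for mir-143 in E11.5 against E8.5. None of these was past the threshold.

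The replicate numbers did not pair the libraries: of 18 pairs with the same number, 2 had a correlation of deviations above 0.1 (range -0.13 to 0.12). With the replicate number as a block, the members called stayed at 1, 1, 0, 1, 2 and 0 in the 6 comparisons and were 1 in place of 3 over the 4 stages. Under the block the sign changed for miR-199a-3p in E9.5 against E8.5 (-0.18), E10.5 against E9.5 (0.32), E11.5 against E10.5 (0.031) and E11.5 against E9.5 (0.35), and for mir-143 in E11.5 against E8.5 (-0.32).

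Other sign changes were those of miR-199a-5p in E11.5 against E10.5 with RLE factors (-0.10) and DESeq2 (-0.10), of miR-199a-3p in E10.5 against E9.5 with library size alone (0.37), no filter (0.049), limma voom (1.31) and counts under 10 set to 0 (0.10), of miR-199a-3p with limma voom in E9.5 against E8.5 (-0.80), E11.5 against E8.5 (-0.20) and E11.5 against E9.5 (0.60), of miR-199a-3p in E11.5 against E8.5 with counts under 10 set to 0 (-0.025), and of mir-143 in E11.5 against E8.5 with limma voom (-1.53). For the other 7 tested members, 15 of 40 fitted differences changed sign in some alternative, and 4 of 816 alternative fits were called.

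Over all entries, RLE factors changed the calls from 23 higher of 32 to 44 of 50 in E9.5 against E8.5, from 9 of 25 to 1 of 24 in E10.5 against E9.5 and from 7 of 26 to 0 of 27 in E11.5 against E9.5. DESeq2 called 63, 61, 12, 109, 98 and 61 entries in the 6 comparisons in the order E9.5 against E8.5, E10.5 against E9.5, E11.5 against E10.5, E10.5 against E8.5, E11.5 against E8.5 and E11.5 against E9.5, where edgeR called 32, 25, 2, 49, 66 and 26. In the same order limma voom called 17, 1, 3, 108, 147 and 6 of 571 entries. With no filter, edgeR called 43, 50, 5, 53, 67 and 37 of 1053. Counts under 10 set to 0 gave 35, 27, 0, 26, 33 and 34 of 554. With 10 counts in every library, 42, 21, 1, 33, 43 and 21 of 107 were called. Fitting only the 2 stages compared gave 41 of 401, 11 of 252, 4 of 403, 100 of 444, 106 of 527 and 10 of 360.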
